A study of Mus musculus with 2 samples.

Results

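The Hoxb cluster on mouse chromosome 11 holds 10 homeobox genes, Hoxb13, Hoxb9, Hoxb8, Hoxb7, Hoxb6, Hoxb5, Hoxb4, Hoxb3, Hoxb2 and Hoxb1, of 39 Hox genes and 21887 protein-coding genes in all. They were chosen by gene name and looked up in the authors' table of genes with Ring1b intervals, where Hoxb1 has no row. The 27 of 4316 merged Ring1b regions that lie between Hoxb13 and Hoxb1 were taken with them. Neither choice used a measured value, though earlier results of these data were known. The assay was chromatin immunoprecipitation of Ring1b followed by sequencing (ChIP-seq), in cells of the incisor pulp of CD1 mice at 5 days after birth. The mice had received 1 dose of 3.3 µg per g of EdU, a thymidine analogue built into replicating DNA, 24 h earlier, and EdU+ cells were sorted for the assay. The groups are 1 Ring1b ChIP sample and 1 input DNA sample from the same kind of cells, with no genotype or treatment contrast between them. The sorted cells are every pulp cell type that took up EdU, so a higher signal per cell and more cells with Ring1b at a locus cannot be told apart. RNA was not measured here, so the labelled tissue could not be checked by its markers.

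The file headers name 2 sets of ChIP intervals. They are called run 1 and run 2 and count as 1 sample, because the labels give 1 ChIP sample, so no test between replicates was possible. Run 1 held 465 intervals with heights up to 9, and run 2 held 3938 with heights up to 66. The files give no read totals and no input values, so depth is unknown. Heights are the authors' whole-number summit signals on an unstated scale. All coordinates are mm10, with ends counted from 1.

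Ring1b is the catalytic subunit of Polycomb repressive complex 1, which attaches ubiquitin to histone H2A and holds developmental genes in a repressed state. Hox genes are among its classical targets. They encode homeodomain transcription factors that give segments along the body axis their identity, and within a cluster the genes at one end act in the hindbrain while those at the other act in the trunk and tail. All Hoxb genes are read in the same direction, from Hoxb13 towards Hoxb1.

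RefSeq promoter windows of GRCm38.p6, the assembly named mm10, were found for 3 members, Hoxb8, Hoxb4 and Hoxb1, and for the antisense transcript Hoxb3os. Each runs from 250 bases before to 50 bases after the start. They are shown because they differ in Ring1b: a region covered the Hoxb4 and Hoxb3os windows fully and the last 146 bases of the Hoxb8 window, and none reached the Hoxb1 window. Capitals mark CpG dinucleotides.
Hoxb8 promoter, chr11:96281655-96281954, plus strand: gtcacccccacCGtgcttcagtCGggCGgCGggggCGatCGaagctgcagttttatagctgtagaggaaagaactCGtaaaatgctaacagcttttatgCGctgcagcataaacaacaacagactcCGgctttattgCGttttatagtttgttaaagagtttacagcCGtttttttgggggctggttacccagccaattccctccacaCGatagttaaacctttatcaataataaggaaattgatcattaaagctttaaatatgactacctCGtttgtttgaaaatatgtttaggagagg
Hoxb4 promoter, chr11:96318017-96318316, plus strand: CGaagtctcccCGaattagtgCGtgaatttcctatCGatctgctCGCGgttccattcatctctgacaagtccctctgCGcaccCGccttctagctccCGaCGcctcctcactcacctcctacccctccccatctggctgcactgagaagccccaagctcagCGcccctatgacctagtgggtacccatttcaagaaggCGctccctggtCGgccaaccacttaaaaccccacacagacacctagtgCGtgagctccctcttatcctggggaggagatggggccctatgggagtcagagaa
Hoxb3os promoter, chr11:96353345-96353644, minus strand: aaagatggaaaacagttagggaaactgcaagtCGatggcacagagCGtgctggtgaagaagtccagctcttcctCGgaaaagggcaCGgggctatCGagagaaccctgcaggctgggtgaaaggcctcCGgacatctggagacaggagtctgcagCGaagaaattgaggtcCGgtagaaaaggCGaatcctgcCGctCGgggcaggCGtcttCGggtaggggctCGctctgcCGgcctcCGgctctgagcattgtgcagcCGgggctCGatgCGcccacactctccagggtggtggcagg
Hoxb1 promoter, chr11:96365508-96365807, plus strand: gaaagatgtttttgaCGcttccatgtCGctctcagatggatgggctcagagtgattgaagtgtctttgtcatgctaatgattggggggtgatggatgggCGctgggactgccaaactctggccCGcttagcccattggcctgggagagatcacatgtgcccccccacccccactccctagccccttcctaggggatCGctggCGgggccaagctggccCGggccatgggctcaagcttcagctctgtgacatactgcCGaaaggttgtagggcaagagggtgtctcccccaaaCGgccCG

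The Hoxb8 window held 13 CpGs, the Hoxb4 window 14 and the Hoxb3os window 19, whereas the Hoxb1 window held 10. Over the 32851 RefSeq windows of the genome, some genes having several, the 1957 (5.96%) overlapped by a region had a median of 28 CpGs with quartiles of 21 and 37. The other windows had a median of 6, with quartiles of 3 and 18. The 3 overlapped Hoxb windows thus lay below the lower quartile of overlapped windows, and Hoxb1 lay within the quartiles of the others. GC content was 42.3% in the Hoxb8 window, 58.0% in Hoxb4, 60.7% in Hoxb3os and 59.3% in Hoxb1, against a median of 67.3% in overlapped windows and 52.0% in the others.

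Both strands of these windows were searched for 3 short motifs. The letters TGATNNAT, a composite site of Pbx and Hox proteins, occurred once in the Hoxb1 window, at base 89 of the window on the plus strand, and once in the Hoxb8 window, at base 240 on the minus strand. This motif is present in 8.85% of all windows. The letters TATAAA (13.6% of all windows) occurred 2 times in the Hoxb8 window, both on the minus strand, and ATTGG, the reverse complement of a CCAAT box (37.4%), occurred 2 times in the Hoxb1 window and 1 time in the Hoxb8 window. Such matches are a description of the letters only.

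**Figure D1:**
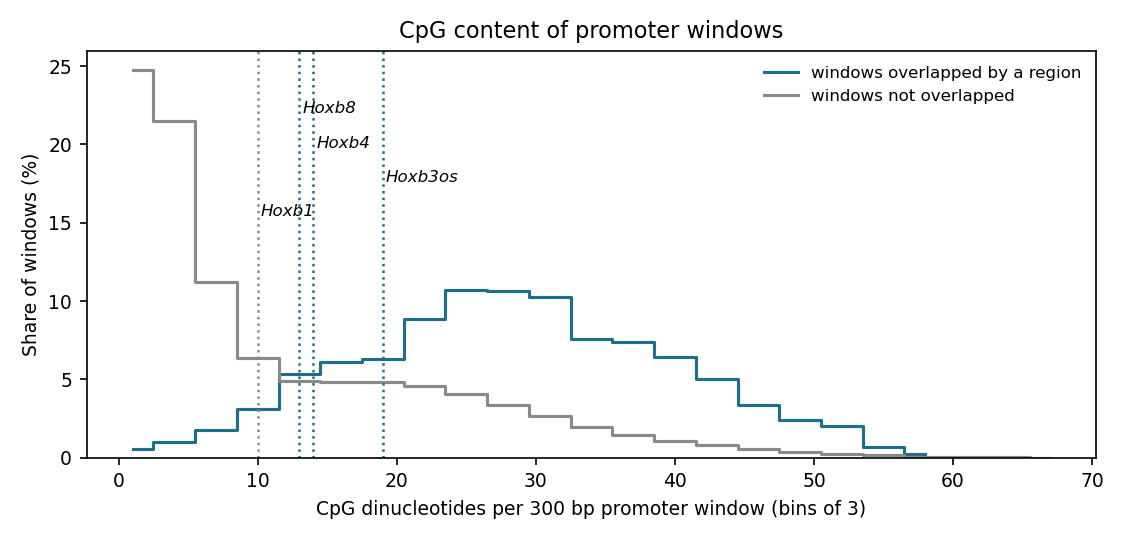
CpG dinucleotides per 300 bp RefSeq promoter window, as the share of windows (%) in bins of 3, for windows overlapped by a Ring1b region and those not overlapped. Dotted lines mark the Hoxb8, Hoxb4 and Hoxb3os windows (13, 14 and 19 CpGs, overlapped) and the Hoxb1 window (10, not overlapped), which lie left of the overlapped windows' median of 28.

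Of the 10 Hoxb genes, 9 had an interval assigned by the authors, who counted intervals up to 10 kb from a gene (90%, exact Clopper-Pearson 95% interval 55.5 to 99.7%, counting error only). Among all protein-coding genes 15.8% had one. The Hoxb genes are neighbours and share intervals, so the 9 are not independent. Their 58 pairings of gene and interval came from 26 intervals, of which 22 were assigned to more than 1 member and the most shared to 4 members. Of the 58, 22 lay upstream of the gene, 15 within it and 21 downstream. The median number of intervals was 6 per Hoxb gene with an interval, against 1 over all protein-coding genes with one.

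Hoxb1 was the member without an interval. It controls the identity of a hindbrain segment and is the first of the cluster to be switched on in the embryo. Its start lay 10986 bp past the end of the nearest region, which lies at Hoxb2 and has height 4. That is just beyond the 10 kb limit of the assignment.

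Hoxb2, a hindbrain gene under the control of Egr2, carried the highest and widest region of the cluster. This region covered chr11:96351239-96353743, was 2505 bp wide and had a summit of height 11 inside the gene, 800 bp after its start. Together with the next region it covered 97.2% of the gene, the largest share of any member. Of the 27 regions of the cluster, 1 reached a height of 10, which is near the share over all regions, 164 of 4316 (3.80%). The remaining intervals of Hoxb2 had heights of 5, 3, 4 and 4.

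Hoxb3, a hindbrain and neck patterning gene, is the longest member and had the most intervals, 12. Its listed peak of 11 is the Hoxb2 region, which lies 29306 bp after the Hoxb3 start and downstream of the gene. The interval nearest to the Hoxb3 start had height 3, lay 758 bp upstream and came from run 1. Over the body of Hoxb3 lay 5 regions of heights 4, 3, 5, 3 and 4, which covered 16.5% of the gene. Genes with 12 or more intervals numbered 14 of the 3993 in the authors' table.

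Hoxb4, known for its effect on blood stem cell expansion, had a region over its start, chr11:96317754-96318683, with a summit of height 5 at 85 bp after the start. A second region inside the gene had height 3. Its highest interval, of height 6, lay 3435 bp upstream, and 31.4% of the gene was covered. Hoxb4 had the lowest peak of the 9 genes.

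Hoxb5, which acts in the neural crest of the gut, had 1 region inside the gene, of height 7 and 1256 bp after the start, and 37.1% of it was covered. Hoxb6 had no region over the gene body in the authors' annotation. Its nearest summit, of height 5, lay 3619 bp upstream, and its peak of 8 lay 7443 bp upstream. RefSeq places the outermost start of Hoxb6 6357 bp further upstream than the authors' table, and 3 regions with heights up to 8 lay within 2.5 kb of that start. With the RefSeq outermost start in place of the deposited one, 16025 bp further upstream for Hoxb3, a region of height 7 lay within 2.5 kb of it. For Hoxb8 that start lies 2504 bp further upstream, 2 regions of height 3 lay within 2.5 kb of it and none lay over it. For Hoxb7 that start lies 1042 bp further upstream, inside a region of height 6, whereas no region covered its deposited start. For Hoxb6, Hoxb3, Hoxb8 and Hoxb7 the placement depends on the transcript model.

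Hoxb7 had a region of height 7 at 554 bp after its start, with 20.9% of the gene covered, and its peak of 8 lay downstream, 5082 bp after the start. Hoxb8, which acts in the spinal cord and in blood-forming cells, was covered over 80.6% by 3 regions. Their heights were 3 over the start, 5 at 1263 bp and 6 at 2863 bp after it, so within Hoxb8 the region at the start was the lowest. Hoxb9, which shapes the ribs and the mammary gland, had a region of height 8 at 414 bp after its start and another of height 6 at 1678 bp, with 18.6% of the gene covered.

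Hoxb13, a gene of the tail bud and prostate that lies apart from the others, had no region over the gene. Its 3 intervals, of heights 4, 3 and 7, all lay downstream, 5468, 6567 and 9095 bp after its start. The highest of them, chr11:96203023-96204680, was 1658 bp wide and overlapped the noncoding transcripts Gm11538 and Gm30134.

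**Figure D2:**
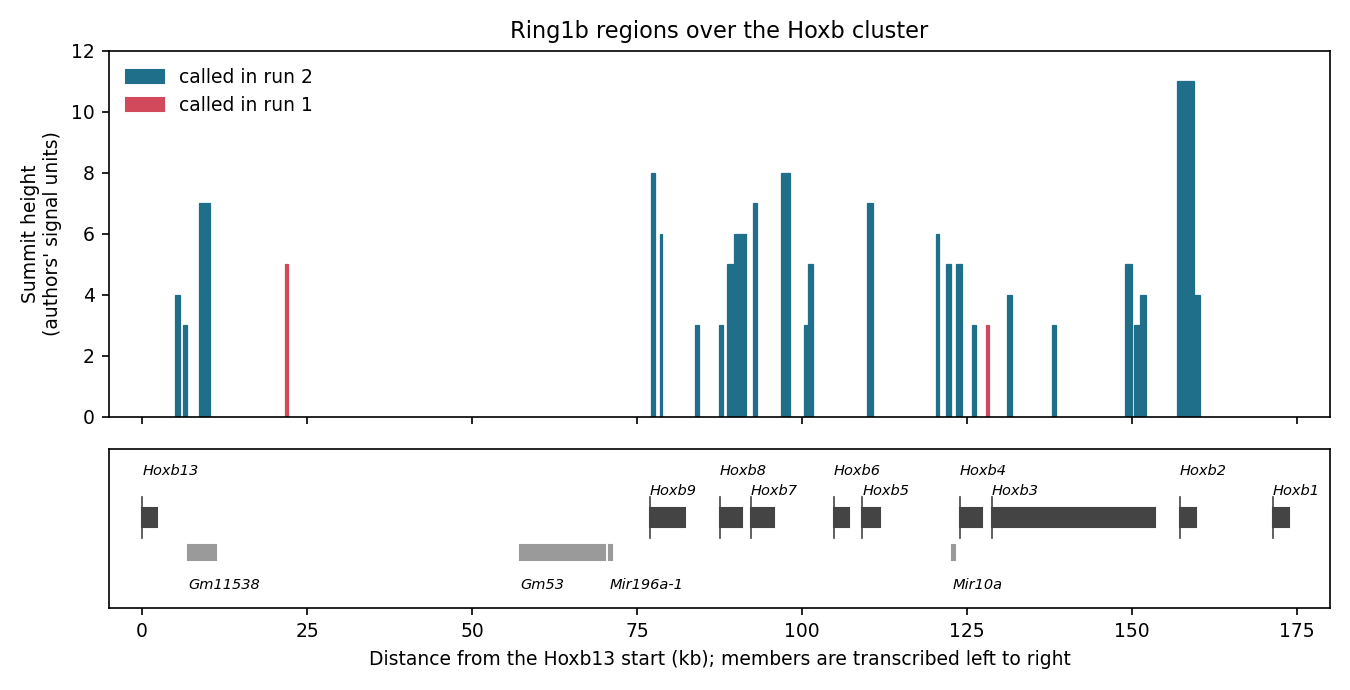
Summit height (authors' signal units) and extent of the 27 Ring1b regions over the Hoxb cluster, by distance from the Hoxb13 start in kb, with the 10 member genes (dark) and other transcripts (grey) below. Regions crowd from Hoxb9 to Hoxb2, the highest, at 11, lies on Hoxb2, and none lies on Hoxb1.

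Regions within 2.5 kb of a member's start numbered 14 of the 27, a count with no like share over all regions beside it. Of the 10 members, 7 had at least 1 such region (background over protein-coding genes 10.4%). Hoxb13, Hoxb6 and Hoxb1 had none. Within 1 kb the same count of 7 stood against 9.72%, and within 5 kb 9 of 10 stood against 11.2%. A region lay directly over the deposited start of 3 members, Hoxb8, Hoxb4 and Hoxb2, against 6.52% of protein-coding genes. With the interval nearest to the start in place of the highest, the heights were 11 at Hoxb2, 8 at Hoxb9, 7 at Hoxb7 and Hoxb5, 5 at Hoxb6 and Hoxb4, 4 at Hoxb13 and 3 at Hoxb8 and Hoxb3. The median over these 9 genes was then 5, against 8 for their highest intervals.

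**Figure D3:**
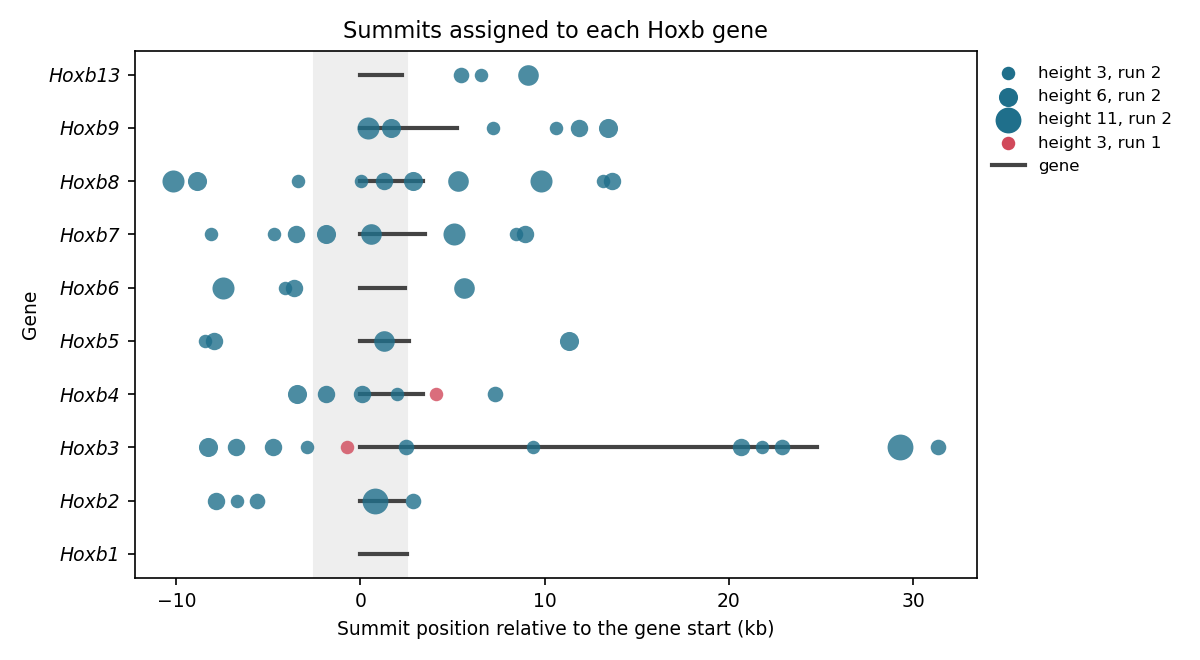
Position of each assigned summit relative to the start of the gene (kb) for the 10 Hoxb genes, with point area proportional to height, colour for the run and a line for the gene. Grey marks 2.5 kb on either side of the start, where Hoxb13, Hoxb6 and Hoxb1 have no summit.

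By highest interval the order was Hoxb2 and Hoxb3 at 11, Hoxb9, Hoxb8, Hoxb7 and Hoxb6 at 8, Hoxb13 and Hoxb5 at 7 and Hoxb4 at 6. Over all protein-coding genes with an interval the median was 4. Of the 10 members, 9 had a height of 5 or more, against 7.9% of all protein-coding genes and 49.9% of those with an interval. The same 9 had a height of 6 or more, against 4.25% and 26.9%. Each height here is the highest of a gene's intervals, of which Hoxb genes had a median of 6 and the background genes 1. These shares and medians are therefore no even comparison, and genes with equal numbers of intervals were not compared. Region by region, the median height was 5 in the cluster and 4 over all regions. Several ties in the order of the genes are 1 region counted for neighbours. Hoxb9 and Hoxb8 share a region of height 8, and Hoxb8, Hoxb7 and Hoxb6 share another. With 1 sample no spread can be set against steps of 1 unit, so the order from 8 down to 6 could not be tested.

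Run 2 had intervals at all 9 genes, against a background of 14.8%, and run 1 at 2 of 10, Hoxb4 and Hoxb3, against 1.73%. Both take the run 1 call from the same interval, chr11:96322263-96322779, of height 3, which lies between them. The other run 1 interval of the cluster, of height 5, lay 21831 bp after the Hoxb13 start and was assigned to no member. Of the 27 regions, 25 were called in run 2 only, 2 in run 1 only and 0 in both. Of all 4316 regions 73 (1.69%) were called in both, so a count of 0 among 27 is near the share over all regions.

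The authors' table also gives a mean height per gene in each run, also where the run has no called interval. In run 2 these means were 4.667 at Hoxb13, 5.167 at Hoxb9, 5.4 at Hoxb8, 5 at Hoxb7, 5.75 at Hoxb6, 5.25 at Hoxb5, 4.167 at Hoxb4, 4.583 at Hoxb3 and 5.4 at Hoxb2. In run 1 they were 1 at Hoxb13 and Hoxb2, 1.333 at Hoxb5, 1.5 at Hoxb9 and Hoxb6, 1.6 at Hoxb3, 1.625 at Hoxb8 and Hoxb7 and 2 at Hoxb4. A mean of 1.625 cannot come from the 10 whole heights of Hoxb8, nor 1.333 from the 4 of Hoxb5 or 1.6 from the 12 of Hoxb3. At these genes run 1 means were taken over fewer intervals than were assigned, and the means of the runs rest on unlike sets. The noncoding transcript Gm53 and the microRNA gene Mir196a-1 have only the 2 intervals inside Hoxb9, and their run 1 mean is 0. Hoxb8 has these 2 besides the 8 of Hoxb7, yet the same run 1 mean, as if intervals at 0 were left out. If so, the 1.5 at Hoxb9 also rests on fewer than its 6 intervals. For the remaining genes the run 1 means could come from all assigned intervals, so this cannot be told. Since 25 of the 27 regions were called in run 2 only, most heights were averaged at places picked by run 2. The means are therefore no even comparison of the runs, and the reason for the higher run 2 means was not tested.

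**Figure D4:**
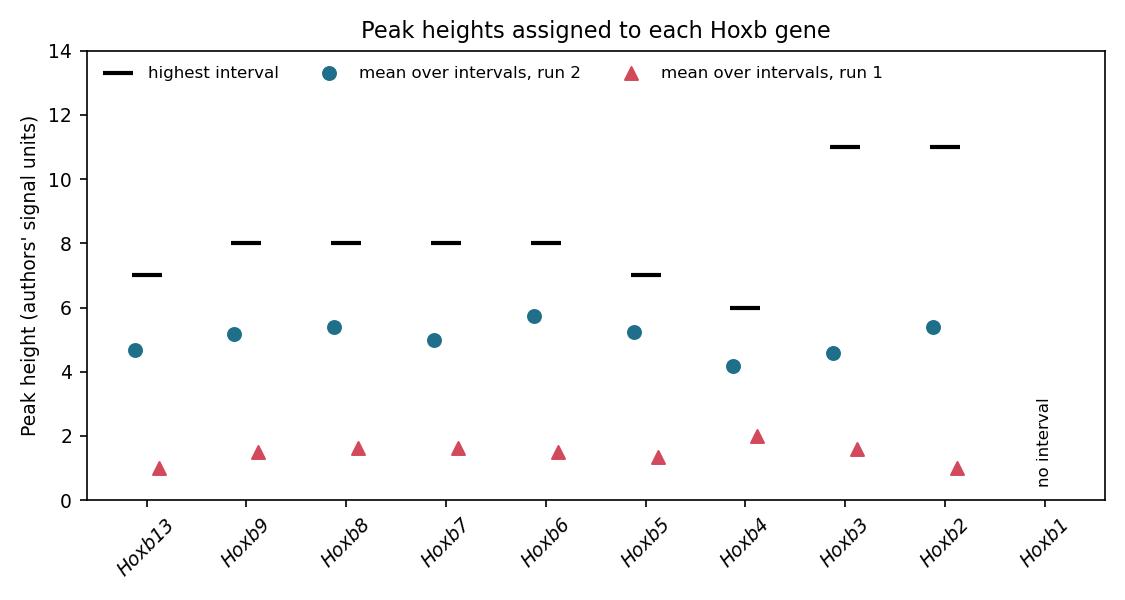
Peak height (authors' signal units) per Hoxb gene: the highest interval (bar), the mean over intervals in run 2 (circles) and in run 1 (triangles). Run 2 means lie at 4.167 to 5.75 and run 1 means, over fewer intervals at least at Hoxb8, Hoxb5 and Hoxb3, at 1 to 2. Hoxb1 has no interval.

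Coverage was uneven along the cluster. Regions covered 13.5% of the 174 kb from Hoxb13 to Hoxb1, against 0.129% of all chromosomes taken to their last annotated gene. From Hoxb9 to Hoxb2, 82.7 kb, 23 regions covered 23.6%. From Hoxb13 to Hoxb9, 77.0 kb, 4 regions covered 4.32%, and between Hoxb2 and Hoxb1 the end of 1 region covered 5.23%. The longest stretch without a region was 55076 bp before Hoxb9, and the median gap was 1714 bp. Of the 27 regions, 16 overlapped a member gene in the authors' annotation, again a count with no like share over all regions. The median width of the 27 was 725 bp and their median height 5, against 671 bp and 4 over all regions.

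The Hoxb cluster was set beside the other Hox clusters as a description, since 1 sample gives no test of the difference. Coverage was 13.5% in Hoxb, against 51.6% in Hoxa, 15.8% in Hoxc and 41.2% in Hoxd. Without the stretch before Hoxb9 it was 20.9%. Hoxb had 1.55 regions per 10 kb, against 3.51 in Hoxa, 1.56 in Hoxc and 2.99 in Hoxd. The median region width was 725 bp in Hoxb, 1073 bp in Hoxa, 783 bp in Hoxc and 1327 bp in Hoxd. Median region heights were closer, at 5 in Hoxb, 6 in Hoxa, 5 in Hoxc and 6 in Hoxd. Regions called in both runs numbered 0 in Hoxb, 3 in Hoxa, 0 in Hoxc and 2 in Hoxd.

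**Figure D5:**
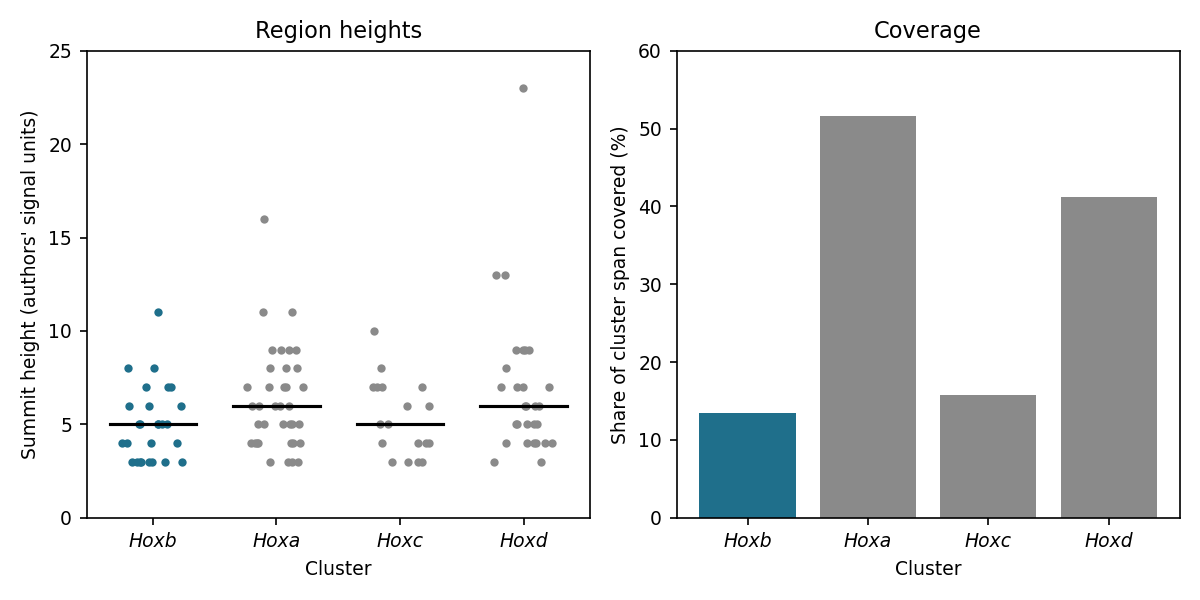
Left, summit height (authors' signal units) of each region over the 4 Hox clusters, with the median as a line. Right, share (%) of each cluster's span covered by regions: 13.5% in Hoxb, 51.6% in Hoxa, 15.8% in Hoxc and 41.2% in Hoxd.

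Paralogues, the genes of equal number in the 4 clusters, descend from 1 ancestral gene and overlap in function. For the 9 Hoxb genes with an interval there were 19 such pairs, and the Hoxb gene had the lower peak in 15, an equal one in 1 and the higher in 3. Hoxb13 reached 7, against 11 at Hoxa13, 7 at Hoxc13 and 23 at Hoxd13. Hoxb9 reached 8, against 16 at Hoxa9, 7 at Hoxc9 and 13 at Hoxd9. Hoxb2 was an exception, at 11 against 9 at Hoxa2. Hoxb3 also exceeded Hoxa3, at 9, though not Hoxd3, at 13, but its peak is the same Hoxb2 region. Hoxb1 had no interval, whereas Hoxd1 reached 7. Pairs within a cluster share regions and are not independent. Each peak is the highest of a gene's intervals, whose numbers differ within pairs. Hoxb13 had 3 against 9 at Hoxd13, and Hoxb8 had 10 against 4 at Hoxc8. The peaks are therefore no even comparison.

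The cluster also holds microRNA genes, whose products pair with messenger RNAs, Hox messages among them. Their mature RefSeq sequences are shown with those of the copies in other clusters because the families share a seed, bases 2 to 8, in capitals.
mmu-miR-10a-5p (Mir10a, Hoxb): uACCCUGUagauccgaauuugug
mmu-miR-10b-5p (Mir10b, Hoxd): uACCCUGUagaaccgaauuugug
mmu-miR-196a-5p (Mir196a-1, Hoxb, and Mir196a-2, Hoxc): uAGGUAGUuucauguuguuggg
mmu-miR-196b-5p (Mir196b, Hoxa): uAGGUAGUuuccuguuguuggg

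Counted from the 5′ end with the Hoxb microRNA's base first, miR-10a-5p and miR-10b-5p differ by U12A and miR-196a-5p and miR-196b-5p by A12C, both outside the seed. Mir10a, just upstream of Hoxb4, had 6 intervals with a peak of 6 and its nearest summit 781 bp upstream. Mir10b in Hoxd reached 8, with a summit 182 bp upstream. Mir196a-1, upstream of Hoxb9, reached 8 through regions that lie in Hoxb9, the nearest 6580 bp downstream. Mir196a-2 in Hoxc reached 7 and Mir196b in Hoxa reached 16. No region lay over the hairpins of Mir10a or Mir196a-1 themselves.

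The antisense transcripts of the cluster were also overlapped in the RefSeq annotation. Over Hoxb3os lay 4 regions, the highest being that of Hoxb2 at 11, and over Hoxb5os lay 4, with heights up to 8. ChIP signal carries no strand, so it cannot be assigned to either partner.

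Hox proteins bind DNA together with the TALE homeodomain cofactors of the Meis, Pbx and Pknox families. Of 9 such genes 6 had an interval, against 15.8% of protein-coding genes, and their median height was 5.5. Meis2 reached 22 and Meis1 reached 12, and these 2 were also called in run 1. Pbx3 reached 7, the other cofactor genes with an interval reached 4, and Pbx4 and Meis3 were among those with no interval. Of 13 genes that act upstream of Hoxb genes, 9 had an interval, and their median height was 7. Aldh1a2, which makes retinoic acid, reached 14 and was called in run 1. Cyp26b1, which degrades retinoic acid, reached 8, Rara, a retinoic acid receptor, reached 7, and Egr2 reached 3. Cdx1, Cdx4, Cyp26a1 and Cyp26c1 had none. Over all protein-coding genes with an interval the median height was 4. Each height is again the highest of a gene's intervals, which numbered 15 at Meis1 and 1 at Egr2. The medians are therefore no even comparison.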

How the data were processed

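The submitters' processing notes list BWA, SICER and the build mm10 but neither versions nor settings. The authors deposited, per the file headers, a table of genes with peak signal heights and interval numbers, and a track file that holds a score, the height, for each summit, an interval track per run and merged regions. Browser track addresses hold no values and were left aside. No value column lacked a sample (0 such columns).

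Spans, overlaps (1 bp or more), coverage, distances and CpG counts were computed in Python 3.11.15 (pandas 2.3.3, numpy 2.4.6, scipy 1.17.1) and checked on simulated intervals. Figures used matplotlib 3.10.9. Gene starts came from the deposited table, cluster spans, Hoxb1 and the protein-coding background from RefSeq GRCm38.p6. Genes named were all members, other genes assigned to cluster intervals, listed neighbours and paralogues, with the cofactor and regulator lists. Calcoco2 and Snx11 had no interval, and Prac1 matched no row. A few listed genes are not reported here. The members and lists were chosen with earlier results of these data known. RefSeq starts were added as an alternative after seeing the data. With 1 ChIP sample no p-value was computed.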

Additional observations from a re-analysis of the deposited data

How the results depend on the processing

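No paired analysis was possible because each group has 1 labelled sample. The share of members with an interval, 90%, was 70% with regions within 1 or 2.5 kb of the start, 80% with RefSeq starts, 90% within 5 kb, at heights of 5 or more (background 7.9%) or 6 or more (4.25%) and in run 2, and 20% in run 1. The 27 regions became 15 and 9 at those heights and 2 in run 1. Coverage of 13.5% became 20.9% from Hoxb9, 12.1% with 10 kb added at each end, 8.78% and 5.94% at those heights, 0.517% in run 1 and 13.0% in run 2. Regions at a start, 14, became 8 within 1 kb, 20 within 5 kb, 12 by midpoint and 16 with RefSeq starts. The median peak of 8 became 5 with nearest intervals and 3 in run 1, where it rests on the 1 interval shared by Hoxb4 and Hoxb3. Median CpGs of the member windows, 13, became 12 in the 250 bp before the start. Stricter heights and run 1 hold fewer intervals by construction. The shares of genes at those heights use a gene's highest interval, and Hoxb genes had more intervals than the background genes. Read depth is unknown, and its part in the few calls of run 1 was not tested.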

Other observations

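The flanks of the cluster were unlike at the ends. After the last region, at Hoxb2, the next on the chromosome lay 317770 bp away, at chr11:96672531-96673113, with height 4, and was assigned to Skap1, the protein-coding gene beyond Hoxb1, 208161 bp after its start. On the Hoxb13 side the nearest region outside the cluster, of height 5 and 1450 bp wide, lay 16045 bp before the Hoxb13 start. From region to region, as measured at the other end, the gap there was 21021 bp. Ttll6 on that side had 1 interval, of height 4, downstream of the gene. No explanation of the difference was tested.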
